A study of Silurus meridionalis with 18 samples.

Results

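Egg coat genes and egg-type histones were followed in the southern catfish, Silurus meridionalis, through 18 adult tissues, as 5 gene models of the 25390 in the deposited table. They are C0J45_11814 and C0J45_11816, both named zona pellucida glycoprotein 2, like 1, C0J45_12820, named zona pellucida sperm-binding protein 3, C0J45_20837, named H2A histone family member 1a like, and C0J45_21020, named linker histone H1M. The 5 were chosen by locus tag for their high level in the Ovary library, so their Ovary levels and their ratios against other tissues describe the choice, and no test was made on them.

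Polyadenylated RNA of 18 tissues was sequenced, with 1 library for each. These were Ovary and Testis, Heart, Skin, Gill and Muscle, Liver, Intestine and Pancreas, Spleen, Kidney and Head_kidney, Maxillary_barbel and Mandibular_barbel (barbels are whisker-like feelers), Retina, Brain, Olfactory_bulb and Telecephlon, spelled so in the labels for the telencephalon. All fish were adults from a benthic, that is bottom-living, setting, with no treatment or strain given. The labels do not give the number of animals, whether tissues were pooled, the sex behind the tissues other than the gonads, or the season and the stage of the ovary. Values are FPKM, fragments per kilobase of transcript and per unit of sequencing depth, which allows levels to be compared between genes per unit of length. Whether that length is the coding length or the whole transcript is not given in the sources used here, so comparisons between genes rest on an unknown length. With 1 library per tissue no difference has a replicate check, no spread is known for any pair of neighbouring levels, and a lower level from fewer cells of a type and one from less RNA per cell cannot be told apart.

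The fish egg is wrapped in an acellular coat built from zona pellucida glycoproteins, which polymerise through a shared zona pellucida domain and take part in sperm recognition in mammals. In fish these proteins are made by the oocyte, by the liver or by both, depending on the species. The egg also stores the chromatin proteins of the first embryonic divisions, among them core histones, around which DNA is wound, and an egg-type linker histone, which binds the DNA between nucleosomes and is later replaced by body-cell H1 forms.

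The egg coat genes C0J45_11814 and C0J45_11816 lie on the minus strand of chromosome 12, from 23689604 to 23691520 and from 23704815 to 23706354. Coordinates are those of the deposited annotation, whose genome build is not given in the sources used here. A gap of 13294 bp separates them and holds C0J45_11815, named biogenesis of lysosome-related organelles complex 1 subunit 3, which had an FPKM of 1.71 in Ovary. C0J45_11814 has 8 coding exons and 1239 coding bp, and C0J45_11816 has 7 coding exons and 972 coding bp. Their first 3 coding exons are of equal length in the same order, at 280, 188 and 98 bp. Coding exon 6 also has 148 bp in both, and the other later exons differ in length or are missing from C0J45_11816. Both carry a P-type trefoil domain together with the zona pellucida domain in the motif list of the annotation.

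In Ovary C0J45_11814 had an FPKM of 9573. Heart followed at 1.81, Kidney at 0.410, Maxillary_barbel at 0.215, Skin at 0.168, Head_kidney at 0.158, Intestine at 0.121 and Olfactory_bulb at 0.116. Testis stood at 0.0792, Gill at 0.0533, Mandibular_barbel at 0.0500, Brain at 0.0335 and Telecephlon at 0.0185, and Liver, Muscle, Pancreas, Retina and Spleen were listed at 0. Thus Ovary alone held the gene at a high level, and Heart was the single other tissue at an FPKM of at least 1. The log2 ratio of FPKM + 1 was 11.73 against Heart and 13.12 against Testis, a scale on which low values are pulled towards 0 and ratios understated.

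Its neighbour C0J45_11816 had an FPKM of 4405 in Ovary. Heart again came next at 1.10, then Maxillary_barbel at 0.543, Intestine at 0.375, Mandibular_barbel at 0.195, Olfactory_bulb at 0.126, Gill at 0.0883 and Telecephlon at 0.0781. Skin stood at 0.0640, Testis at 0.0405, Kidney at 0.0297, Spleen at 0.0126, Pancreas at 0.00502 and Head_kidney at 0.0039, and Brain, Liver, Muscle and Retina were listed at 0. Both copies shared Ovary and Heart as their first tissues, while the order below these differed, with Kidney after Heart for C0J45_11814 and Maxillary_barbel after Heart for C0J45_11816. The log2 ratio of FPKM + 1 was 11.03 against Heart and 12.05 against Testis. Reads of 2 like copies can be shared between them, so the 2.17-fold difference between the copies in Ovary is uncertain, while their summed FPKM was 13978.

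C0J45_12820 encodes a zona pellucida sperm-binding protein 3, a relative of the mammalian coat protein ZP3. It lies on the plus strand of chromosome 14 from 3503702 to 3505641 and has 4 coding exons with 696 coding bp. Its FPKM was 3879 in Ovary, 0.676 in Heart, 0.0518 in Pancreas, 0.0223 in Testis, 0.0199 in Brain, 0.0182 in Gill and 0.00727 in Head_kidney. The other 11 tissues, Liver among them, were listed at 0, so that no tissue but Ovary reached an FPKM of 1. On the log2 scale of FPKM + 1 the ratio was 11.18 against Heart and 11.89 against Testis.

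Of the histones, C0J45_20837 encodes an H2A, 1 of the 4 core histones, in a single coding exon of 423 bp on the plus strand of chromosome 24 from 13317880 to 13318302. In Ovary it had an FPKM of 31302, the highest of all gene models in that library. Skin came next at 3.17, followed by Heart at 1.33, Testis at 1.01, Spleen at 0.502, Muscle at 0.497, Brain at 0.384, Retina at 0.351 and Gill at 0.328. Maxillary_barbel stood at 0.287, Telecephlon at 0.195, Pancreas at 0.182, Kidney at 0.147, Liver at 0.136, Head_kidney at 0.109 and Olfactory_bulb at 0.0856, and Intestine and Mandibular_barbel were listed at 0. This H2A was thus the most widely seen of the 5 genes at low level, and the one whose next tissue was Skin. Its log2 ratio of FPKM + 1 was 12.87 against Skin, 13.71 against Heart and 13.93 against Testis.

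Linker histone H1M, C0J45_21020, is in zebrafish a maternal H1 of the oocyte and early embryo. The model lies on the minus strand of chromosome 25 from 47834 to 48700, has 4 coding exons with 588 coding bp, and is marked as partial, so its length and FPKM may be off. Ovary stood at 12465, Testis at 1.39, Heart at 0.419, Skin at 0.0892, Pancreas at 0.0486 and Brain at 0.0176. The other 12 tissues were listed at 0. H1M was the only one of the 5 with Testis as its next tissue, at a log2 ratio of FPKM + 1 of 12.35, against 13.10 for Heart.

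**Figure D1:**
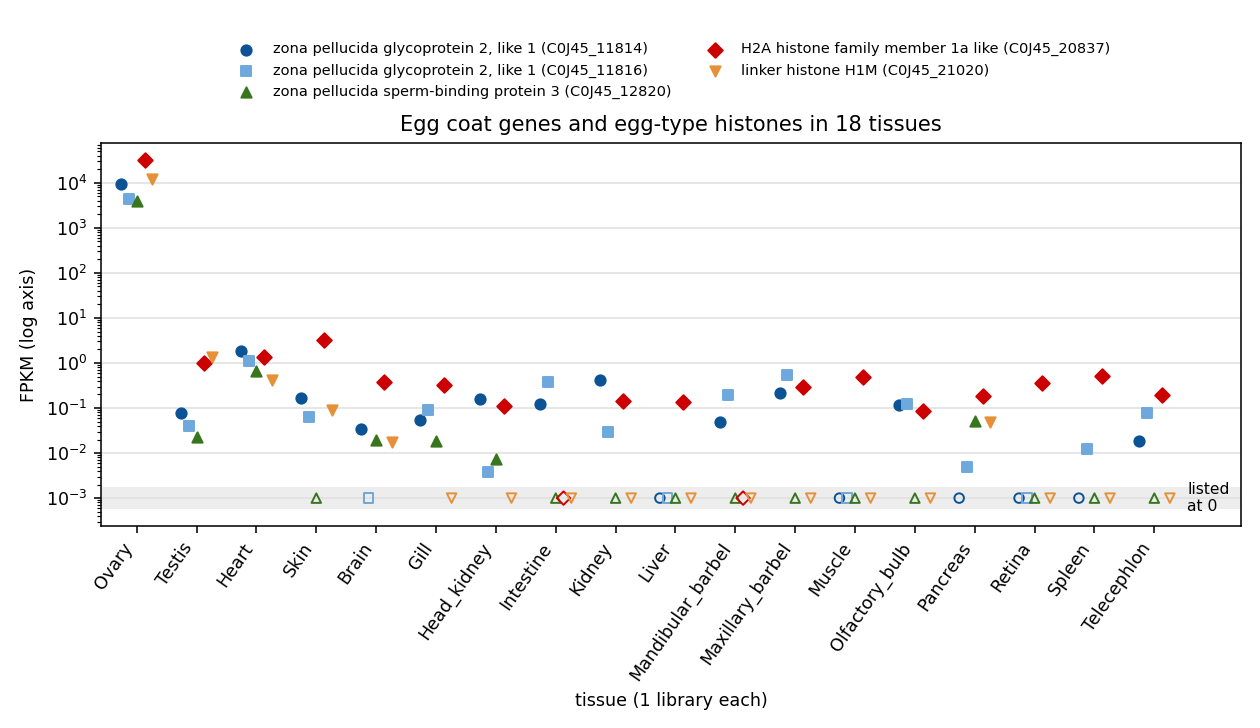
FPKM (log axis) of the 5 genes in each of the 18 tissues, 1 point per gene and library, with open symbols in the grey band for genes listed at 0. All 5 genes lie between 3879 and 31302 in Ovary, and no other library exceeds 3.17.

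Set against the whole table, all 5 genes were enriched in Ovary, defined as an FPKM of at least 10 with FPKM + 1 at least 5 times the next tissue, where 2.02% of the 25390 gene models were. That background of 513 models became 1173 or 264 after rescaling to an upper quartile, of genes above 0 or of genes of at least 1. All 5 also had an Ovary FPKM + 1 at least 1000 times that of the next tissue, a level reached by 17 gene models or 0.067%. These counts restate how the genes were chosen. By rank of this ratio the H2A took rank 1, H1M rank 3, C0J45_11814 rank 5, C0J45_12820 rank 9 and C0J45_11816 rank 10. The other 5 of the first 10 ranks follow here in order, of which C0J45_14943, C0J45_20609 and C0J45_05415 were picked out after their values were seen. C0J45_14943, a hypothetical protein, had an Ovary FPKM of 11201, thymosin beta (C0J45_22835), an actin-binding peptide, 11290, claudin-like protein ZF-A9 (C0J45_20609) 5095, the hypothetical protein C0J45_05415 3958, and C2 calcium-dependent domain-containing protein 4C-like (C0J45_23428) 4327.

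**Figure D2:**
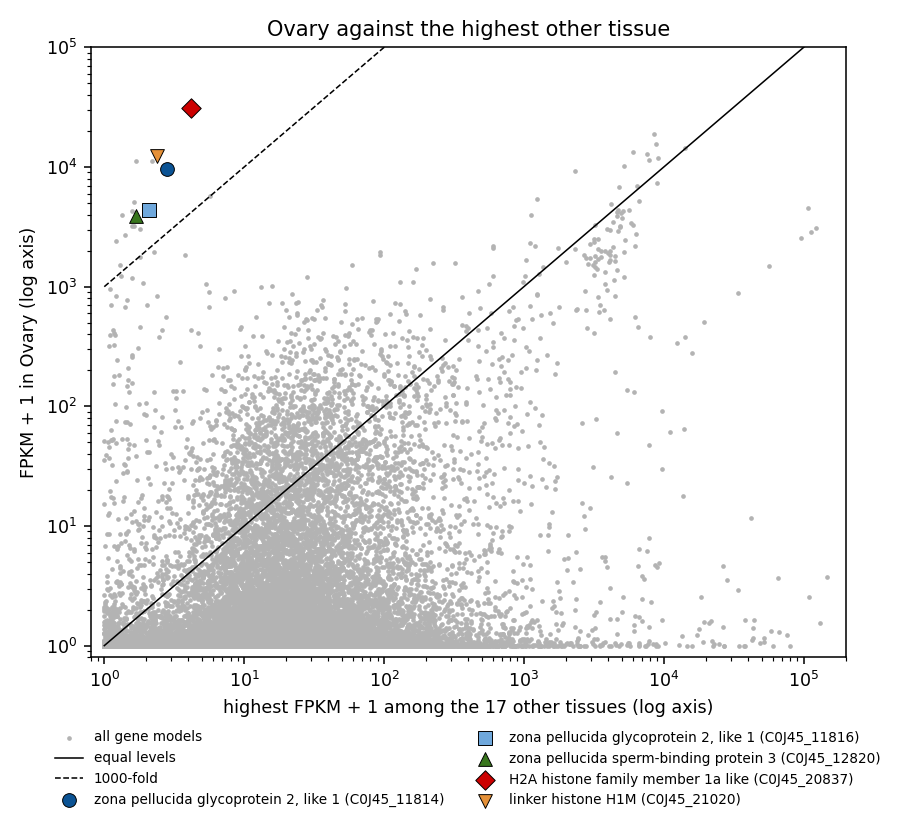
Ovary FPKM + 1 against the highest FPKM + 1 among the 17 other tissues for all gene models (both axes log), with lines for equal levels and for a 1000-fold ratio. The 5 genes lie above the 1000-fold line with 12 other gene models.

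Together the 5 genes held 8.66% of the summed FPKM of the Ovary library, with 4.40% from the H2A, 1.75% from H1M, 1.35% from C0J45_11814, 0.619% from C0J45_11816 and 0.545% from C0J45_12820. In Heart they held 0.000821%, in Skin 0.000592% and in Testis 0.000323%. By level the H2A took rank 1 and H1M rank 7 among all gene models in Ovary, in a top 10 that also held 7 ribosomal protein models and thymosin beta. Of their 85 values in the other 17 tissues, 34 were listed at 0, 22 lay above 0 and below 0.1, 23 from 0.1 to below 1, and 6 at 1 or more. The 6 were 3 in Heart, 2 in Testis and 1 in Skin. Of all 25390 gene models, those listed at 0 in a library numbered from 1537 in Brain to 10342 in Muscle.

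Heart was the next tissue for the 3 egg coat genes, a count of 3 of 5. Among the 513 gene models enriched in Ovary Heart came next in 8.97%, and among the 33 of these with an Ovary FPKM of at least 1000, the 5 genes included, in 42.4%. With each gene's own Ovary FPKM set to 1000000, the Heart level was 189 for C0J45_11814, 249.9 for C0J45_11816 and 174 for C0J45_12820. On this scale it was lower for the histones, at 42.6 for the H2A and 33.6 for H1M. Over the other 28 of these gene models the Heart median was 224, with quartiles at 134 and 3595, and the lowest value was 51.8. Heart was the only tissue outside Ovary in which all 33 had a value above 0. On this scale the 3 egg coat genes lay between the quartiles of the 28, and both histones lay below the lowest of them. The scale divides by the Ovary FPKM on which the genes were chosen, so low values follow in part from the choice. In FPKM the H2A stood at 1.33 in Heart, above C0J45_11816 at 1.10 and C0J45_12820 at 0.676. It stood below C0J45_11814 at 1.81, and H1M was the lowest of the 5 at 0.419. Whether RNA from the Ovary library has a part in the Heart levels was not tested.

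Testis and Skin gave a different picture. On the same scale the Testis level was 112 for H1M, 32.1 for the H2A, and between 5.75 and 9.19 for the egg coat genes, against a median of 73.6 over the other 28 gene models. In Skin it was 101 for the H2A, 17.6 for C0J45_11814, 14.5 for C0J45_11816 and 7.16 for H1M, with C0J45_12820 listed at 0, where the median of the 28 was 0. In Testis H1M thus stood above the median of the 28 and the other 4 genes below it. In Skin any value above 0 lies above the median, as it did for 4 of the 5, the H2A highest of the 5. The upper quartiles of the 28 were 8375 in Testis and 10010 in Skin, above all 5 genes. As for Heart, this scale divides by the Ovary FPKM on which the genes were chosen.

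**Figure D3:**
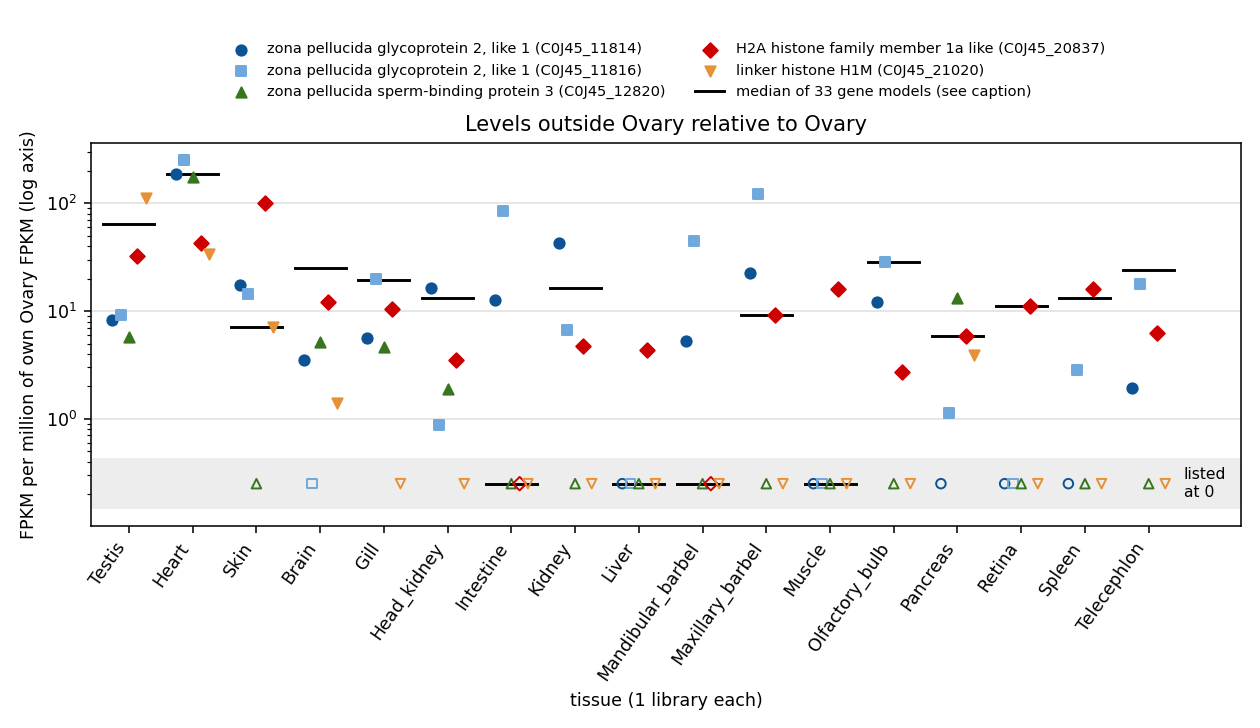
FPKM of each of the 5 genes in the 17 tissues outside Ovary, with its own Ovary FPKM set to 1000000 (log axis), and open symbols for genes listed at 0. Black bars give the median of the 33 gene models that are enriched in Ovary and have an Ovary FPKM of at least 1000, the 5 genes included. The egg coat genes peak in Heart, at 174 to 249.9, H1M peaks in Testis and the H2A in Skin.

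Across the 18 tissues the Pearson correlation of log2(FPKM + 1) between any 2 of the 5 genes lay between 0.987 and 0.998, a value carried by the Ovary library. Without Ovary, over 17 tissues, it was 0.815 between the 2 copies of zona pellucida glycoprotein 2, like 1, 0.913 between C0J45_11814 and C0J45_12820, and 0.771 between C0J45_11816 and C0J45_12820. It was 0.451 between the H2A and H1M, and between 0.174 and 0.362 for each pair of an egg coat gene with a histone. These correlations are descriptions over libraries in which most values are close to 0. Among the 17 tissues, C0J45_12820 stood at 0.676 in Heart and at 0.0518 or less elsewhere. C0J45_11814 stood at 1.81 in Heart and at 0.410 or less elsewhere, and C0J45_11816 at 1.10 and at 0.543 or less. The values between egg coat genes thus lean on the Heart library, and correlations without Heart are not given here.

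The egg coat genes were then set beside their family. Of 16 gene models whose protein name holds zona pellucida, 12 reached an FPKM of 1 in some tissue and 11 of these were highest in Ovary, where 8.64% of the 22197 gene models at that level were highest in Ovary. The 11 are the glycoproteins of the coat, the 3 genes included, and the remaining 5 are zona pellucida-like domain proteins, of which the highest reached 1.16 in Kidney. Most of the 11 passed the FPKM limit of 1 through Ovary alone, so for them the place was fixed by that limit. The 3 genes were chosen for their Ovary level. The count of 11 was the same under every rescaling of the libraries, and with no limit other than an FPKM above 0. Summed over the 11 glycoproteins, FPKM was 23138 in Ovary, 5.97 in Heart, 0.768 in Testis and 0.161 in Liver. In Liver 9 of the 11 were listed at 0 and in Muscle all 11. Over all 25390 gene models, 5448 were listed at 0 in Liver and 10342 in Muscle, the most of any library.

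By name the family divides into ZP2-like, ZP3-like and ZP4-like proteins. The ZP2-like pair stood highest in Ovary. Among the ZP3-like models, C0J45_12820 was followed by C0J45_12821, zona pellucida glycoprotein 3a isoform X1, at an FPKM of 1763 in Ovary and 0.798 in Heart. C0J45_12819, a second zona pellucida sperm-binding protein 3, stood at 1065 and 0.907. These 3 models are direct neighbours on chromosome 14 within 26141 bp. If they are alike enough to share reads, their order by level is uncertain, and this was not checked. Zona pellucida glycoprotein 3d tandem duplicate 2 (C0J45_18640) had an FPKM of 697 in Ovary, and zona pellucida sperm-binding protein 3-like (C0J45_05782) one of 430. The ZP4-like model C0J45_19564 reached 1181. The other 3 glycoproteins lay between 26.5 and 74.4 in Ovary, so the coat genes spanned 26.5 to 9573, with a median of 1065.

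The motif list of the annotation gave 41 gene models with a zona pellucida domain, and 25 of them carry other names. Of these 25, 20 reached an FPKM of 1 in some tissue and 7 were highest in Ovary, or 9 after rescaling to the upper quartile of genes above 0. As deposited, the share over the 22197 gene models at that level was 8.64%, and the share after rescaling is not given here. A trefoil domain together with a zona pellucida domain was found in 6 models, all highest in Ovary. They include C0J45_11814 and C0J45_11816, which were chosen for their Ovary level. The models in the next sentence were chosen after their values were seen. C0J45_11824, which the annotation names thymocyte selection-associated high mobility group box protein TOX although it carries both domains, had an FPKM of 5671 in Ovary and 4.66 in Retina, and lies 132479 bp from C0J45_11816. C0J45_05415, a hypothetical protein with the zona pellucida domain, had 3958 in Ovary and 0.330 in Heart.

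Histone models were less uniform than the coat genes. Of 34 named histone models, 31 reached an FPKM of 1 in some tissue and 15 were highest in Ovary, a count that became 23 of 33 after rescaling to the upper quartile of genes above 0 and 13 of 31 with that of genes of at least 1. As deposited, 8.64% of the 22197 gene models at an FPKM of at least 1 somewhere were highest in Ovary. The share over all gene models under these rescalings is not given here. The 15 include the H2A and H1M, which were chosen for their Ovary level. Among H1 models 4 of 6 were highest in Ovary, H1M included, and among H2A 5 of 10, C0J45_20837 included. Among H3 it was 5 of 11, among H4 1 of 2 and among H2B none of 2. The first of these rescalings gave 4 of 6 for H1, 6 of 10 for H2A, 9 of 11 for H3, 4 of 4 for H4, where more models then passed an FPKM of 1, and none of 2 for H2B. The other gave 3 of 6, 5 of 10, 4 of 11, 1 of 2 and none of 2 in that order. Of the 34, 6 were enriched in Ovary, the 2 genes described here included, beside the 2.02% of all gene models.

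Of the 16 histone models that reached an FPKM of 100 in some tissue, 6 were highest in Ovary, a number that became 9 or 5 under rescalings to an upper quartile. The 6 include the H2A and H1M, which were chosen for their Ovary level. The H2A, H1M and C0J45_03202 reached an FPKM of 100 in Ovary only, so for them being highest there was fixed. The share over all gene models at that level is not given here. After the H2A and H1M came histone H3.3 (C0J45_19324), the replacement H3 that is used outside S phase, at 920 in Ovary against 472 in Gill. Histone 2A family member ZA (C0J45_06080), named as an H2A.Z variant, stood at 595 against 143 in Head_kidney. H4-like C0J45_03202 had 134 in Ovary and 2.11 in Kidney, and H1 histone family, member 0 (C0J45_03591) had 177 against 139 in Head_kidney. The last of these was highest in Head_kidney after rescaling to the upper quartile of genes with an FPKM of at least 1.

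The remaining 10 models of that level were higher elsewhere. Histone 2, H2a (C0J45_10851) had an FPKM of 68.3 in Ovary and 1272 in Retina, a higher level in Retina than in Ovary, unlike C0J45_20837. Among H1 forms, H1 histone family, member X (C0J45_00656) had 28.3 in Ovary and 561 in Head_kidney, and H1-like C0J45_19036 had 27.7 in Ovary and 465 in Maxillary_barbel. H2B 1/2 (C0J45_19038) stood at 26.9 against 102 in Maxillary_barbel, and H2B 3 (C0J45_10852) at 10.8 against 179 in Telecephlon. H4-like C0J45_19037 had 169 against 457 in Retina, and H2AX (C0J45_21303), the variant phosphorylated at DNA breaks, 123 against 139 in Head_kidney. H2A.V (C0J45_22628) stood at 12.7 against 260 in Head_kidney. Of the H3.3 models, C0J45_03598 had 103 against 385 in Mandibular_barbel, and C0J45_21589 had 8.41 against 261 in Head_kidney. Under rescaling to the upper quartile of genes above 0, C0J45_19037, C0J45_21303 and C0J45_03598 became highest in Ovary.

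Within Ovary the named core histones were thus unequal per unit of length, with 31302 for the H2A, 920 for the highest H3, 169 for the highest H4 and 26.9 for the highest H2B. An unnamed model with an H2B motif, C0J45_03633 on chromosome 4, had 2409 in Ovary and 0.218 in Olfactory_bulb, and was chosen after its value was seen. Many histone messenger RNAs of dividing cells lack a poly(A) tail and can be lost when polyadenylated RNA is selected, and their part in these levels was not tested. Histone copies that are nearly identical can also share reads, so the level of a single copy is uncertain.

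**Figure D4:**
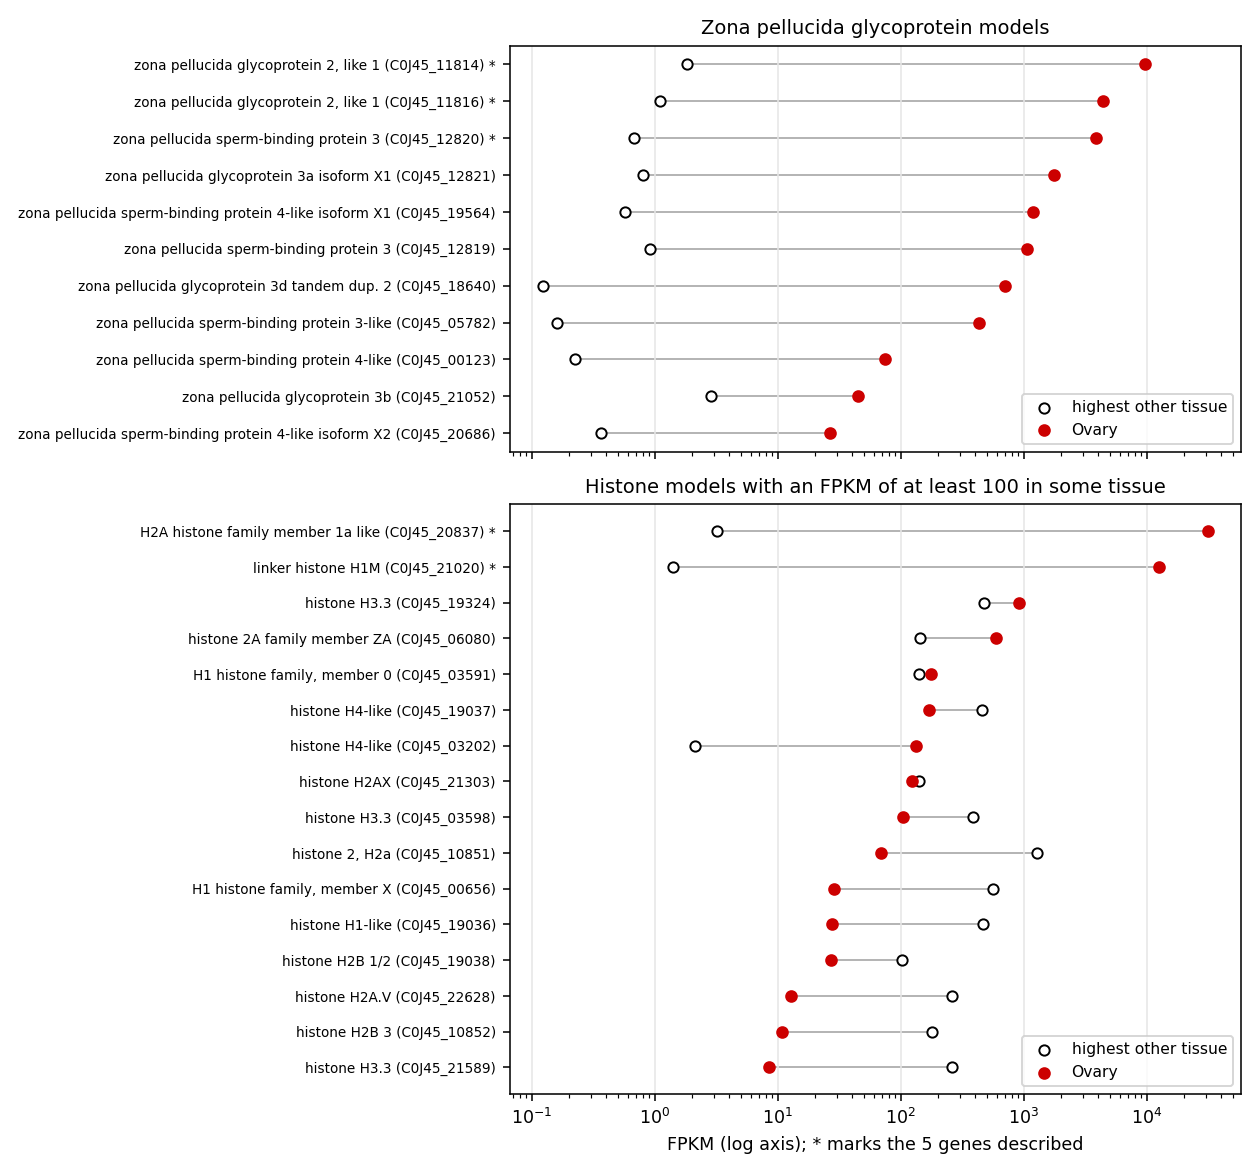
FPKM in Ovary (filled) and in the highest other tissue (open) on a log axis, for the 11 zona pellucida glycoprotein models (top) and the 16 histone models with an FPKM of at least 100 in some tissue (bottom), with an asterisk at the 5 genes. All 11 coat genes are at least 26.5 in Ovary and at most 2.87 elsewhere, whereas 6 of the 16 histone models are highest in Ovary, or 9 and 5 after rescaling to an upper quartile.

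Genes that handle histones were also followed. Of 18 models matched to a list of chaperones, importers and histone-binding proteins, all reached an FPKM of 1 somewhere and 9 were highest in Ovary, a count of 7 to 11 over the rescalings. As deposited, the share over the 22197 gene models at that level was 8.64%, and the share over the rescalings is not given here. Nucleoplasmin-2 (C0J45_10706), the egg chaperone that stores histones, had 1522 in Ovary and 0.305 in Heart. Karyopherin alpha 7 (C0J45_10794), a nuclear import receptor of eggs in mammals, stood at 835, nuclear autoantigenic sperm protein (C0J45_00818), a histone chaperone, at 605, nucleophosmin (C0J45_10511) at 432 and importin subunit alpha-1 (C0J45_13135) at 106.

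The label Ovary was checked against markers of its cells. As deposited, 8.64% of the 22197 gene models at an FPKM of at least 1 somewhere were highest in Ovary. Of 18 models of oocyte factors, 16 reached an FPKM of 1 somewhere and 15 of these were highest in Ovary, or 16 of 17 after rescaling to the upper quartile of genes above 0. They were led by BTG4 (C0J45_21475), an adaptor for the removal of maternal messenger RNA, at 2691, nucleoplasmin-2, ZAR1-like protein (C0J45_10762) at 1226, CDC20 (C0J45_17441) at 456 and bucky ball (C0J45_18033), the organiser of the Balbiani body in zebrafish oocytes, at 409. Of the 24 symbols of oocyte factors 16 were matched by name. Several of the 15 models, BTG4 and nucleoplasmin-2 among them, passed the FPKM limit of 1 through Ovary alone. For these the outcome was fixed by that limit. With no limit other than an FPKM above 0 the count was 16. Of 22 models of ovarian somatic cells, 20 were below 1 in Ovary, and the highest was forkhead box protein L2 (C0J45_17825) at 11.8. Of all 25390 gene models, 6682 reached an FPKM of 1 in Ovary. Markers of low level were picked for their function, not by the rule on levels. Among them, aromatase (C0J45_11970), an enzyme of oestrogen synthesis, stood at 0.181 and the follicle-stimulating hormone receptor at 0.131 in Ovary. This aromatase model was highest in Heart at 0.815, and whether it is a follicle cell form was not tested. The oocyte factors growth/differentiation factor 9 and bone morphogenetic protein 15, both secreted by growing oocytes, stood at 0.549 and 0.0822 in Ovary. Of 7 symbols of vitellogenins, the yolk precursors made by the liver, 2 were matched by name, and their 3 models did not reach an FPKM of 1 in any tissue, at 0.0415 or less in Liver. By these lists, most oocyte factors were highest in the Ovary library. Most ovarian somatic markers were below an FPKM of 1 there, as were most of all gene models.

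No blood cell or testicular somatic model was highest in the same library, and the other lists were mixed. The counts below stand beside 8.64% of the 22197 gene models at an FPKM of at least 1 somewhere that were highest in Ovary as deposited. Blood cell models summed to an FPKM of 14.8 over 8 models in Ovary, with none highest there, and testicular somatic models to 6.88 over 11 models, with none highest there. With lists this short, none highest in Ovary lies near that share. Below an FPKM of 1 in Ovary were 4 of the 8 and 8 of the 11. Of all 25390 gene models 6682 reached 1 there, so levels below 1 are not particular to these lists. Of 13 sperm and spermatid models at an FPKM of 1 or more somewhere, 2 were highest in Ovary (2 to 4 over the rescalings), enkurin (C0J45_24439) at 85.1 and outer dense fiber protein 3-B (C0J45_12102) at 23.5. As deposited, the other 11 were highest in tissues other than the gonads. Over all 16 models of that list the median log2(FPKM + 1) was 0.190 in Ovary and 0.345 in Testis, so the list was low in Testis too. Of the 16 symbols of that list 11 were matched by name, and whether Testis held sperm cells was not tested. Of 14 models of genes shared by both germ lines at an FPKM of 1 or more somewhere, 9 were highest in Ovary (6 to 10 over the rescalings). They were led by RNA helicase Mov10l1 (C0J45_09687) at 73.4 and piwi-like protein 2 (C0J45_22297) at 31.1. Cell division models were highest in Ovary in 10 of 21 (9 to 16 over the rescalings), with proliferating cell nuclear antigen (C0J45_10498) at 518. Of 21 egg surface and cortical granule models 11 reached an FPKM of 1 somewhere, and 3 of these were highest in Ovary (3 or 4 over the rescalings), led by ovochymase-1 (C0J45_16122), an egg protease in frogs, at 166 in Ovary and 0.478 in Gill.

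Against Testis, FPKM + 1 of all 5 genes was more than 4 times higher in Ovary, as it was, counting 4 times and above, in 41.9% of the 5242 gene models that reached an FPKM of 5 in one gonad or the other. The background count of 2195 fell to 981 after rescaling to the upper quartile of genes with an FPKM of at least 1. On the log2 scale the 5 ratios ran from 11.89 to 13.93, beside a median of 1.43 over those 5242 models. The H2A and H1M were the only ones of the 5 to reach an FPKM of 1 in Testis, at 1.01 and 1.39, and the egg coat genes stood at 0.0792 or less there.

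By Pearson correlation of log2(FPKM + 1) with the mean profile of the 5 genes over 18 tissues, among 2673 named models with an FPKM of at least 100 somewhere, a measure that the Ovary value dominates, the most alike was cyclin-A1 (C0J45_10754), with r = 0.9993 and an FPKM of 768 in Ovary. Thymosin beta, BTG4, zona pellucida glycoprotein 3a isoform X1, C2 calcium-dependent domain-containing protein 4C-like and C0J45_12819 followed. Karyopherin alpha 7, a eukaryotic translation elongation factor 1 alpha model (C0J45_18336, 152 in Ovary), zygote arrest protein 1 (C0J45_19820, 395 in Ovary) and bucky ball completed the 10, down to r = 0.9979. Since Heart is the next tissue of the 3 egg coat genes, that it was also the next tissue of these 10 follows in part from the choice. Ordering by Euclidean distance in place of correlation kept 4 of the 10, and there Gill or Telecephlon came next in single models.

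Among 31 gene models within 4 places on either side of the 5 genes, the median Ovary FPKM was 0.899 and 17 were below 1. For comparison, 6682 of all 25390 gene models reached an FPKM of 1 in Ovary, so levels below 1 are not particular to these neighbours. Of the 29 that reached an FPKM of 1 in some tissue, 3 were highest in Ovary as deposited, where the share over all gene models was 8.64%. The 3 were C0J45_12819, C0J45_12821 and RING finger protein 113A (C0J45_12816) at 171. After rescaling to the upper quartile of genes above 0 the count was 5, and the share over all gene models under that rescaling is not given here. The H2A lay between CREG1 (C0J45_20836) at 1.11 and the histone methyltransferase SETDB2 (C0J45_20838) at 4.48 in Ovary, and H1M between eph receptor B4a isoform X1 (C0J45_21019) at 0.622 and tumor necrosis factor ligand superfamily member 13 (C0J45_21021) at 0.899.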

How the data were processed

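The deposited table gives the authors' FPKM, a value normalised for gene length and library depth, for 25390 gene models in 18 columns, each named for its tissue. StringTie 1.3.4d is named in the submitters' processing notes, and the aligner and the build of the genome are not given in the sources that were used. Per the labels' protocols, RNA was extracted with Trizol, treated with DNase I and selected for poly(A), and paired-end libraries were made. A deposited annotation table supplied names, coordinates, coding exons and protein motifs. Its coding lengths are all multiples of 3 (100%), so they hold no untranslated parts.

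No count model or test was used, since FPKM values are not counts and each tissue has 1 library. Whole reads were not recovered from the low values, since 6.81% to 36.4% of them per library came within 0.02 of a whole step, so depth is unknown and no counting interval is given. The sum of FPKM was 711281 in Ovary and 457883 to 1006540 over all libraries. In Ovary 6682 gene models reached an FPKM of 1 against 5740 to 16899 over all libraries. Values were used as deposited, with a pseudocount of 1 for log2 ratios. Ratios between 2 libraries rest on the authors' scaling. In the counts of models highest in Ovary, a model that passed the FPKM limit through Ovary alone was highest there by that limit. This holds for the background share of all gene models as well. Python 3.11.15, numpy 2.4.6, pandas 2.3.3, scipy 1.17.1 and matplotlib 3.10.9 were used. The count of genes enriched in Ovary was run on simulated data over 25390 genes, where it found 200 of 200 genes planted at 20-fold and 0 others. Since 20-fold lies above the 5-fold limit of the count, this checks the counting only. It cannot tell how many calls between libraries without replicates are false.

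The 5 genes and the gene lists were chosen with earlier results of these data known. In 10 lists, 108 of 143 symbols matched protein names, by patterns written after the tables were opened. Named genes are the 5, family models at an FPKM of at least 100 in some tissue, the 10 most alike profiles, neighbours within 4 places, and up to 5 models per other list by Ovary level. Other genes are said where they appear to have been chosen after their values were seen.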

Additional observations from a re-analysis of the deposited data

How the results depend on the processing

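The 5 genes were highest in Ovary under every rescaling, and their log2 ratios over the next tissue stayed between 10.09 and 14.21 in 20 recalculations. The median ratio of 11.73 became 12.29 with a pseudocount of 0.1, 11.61 with libraries rescaled to the same sum, and 12.78 with the same upper quartile of genes above 0. Added after seeing the data, the upper quartile of genes with an FPKM of at least 1 gave 10.76, and leaving out the Heart library gave 12.35. Leaving out Skin or Testis left it at 11.73. The 513 genes enriched in Ovary became 1173 and 264 under these upper quartiles in that order, 295 at an FPKM of at least 100 and 273 at 10-fold, and lay between 414 and 547 otherwise. The upper quartile of genes above 0 multiplied Ovary by 3.13 and that of genes of at least 1 by 0.532, and the median log2 ratio of all gene models against their next tissue moved by 0.61 and -0.06, or by -0.30 with equal sums. Genes 4-fold higher in Ovary than in Testis numbered 2195, and 981 under the upper quartile of genes of at least 1. Histone models highest in Ovary went from 15 of 31 to 23 of 33 under the upper quartile of genes above 0 and to 9 with a minimum FPKM of 10, which tests fewer models. The 11 egg coat models did not change in any recalculation, and the 15 oocyte factor models lay between 12 and 16. No paired analysis was possible because each tissue has 1 library and the labels give no replicate numbers.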
